A study of Mus musculus with 4 samples.

Results

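The comparison described here is that of CH223191 with DMSO in macrophages kept in tumor-conditioned medium. CH223191 is an antagonist of the aryl hydrocarbon receptor (AHR), and DMSO is its vehicle. Both cultures were peritoneal macrophages of wild-type BALB/c mice, elicited with thioglycollate according to the methods, and 30% of their medium was 4T1-CM, which had been conditioned by 4T1 cells, a mouse mammary carcinoma line. Each received either DMSO or 10 µM CH223191, and each is represented by 1 RNA-seq library of read counts per gene. The other 2 libraries of the series are macrophages in normal medium (0% 4T1-CM) with DMSO or with 10 µM CH223191, and their values are given beside those of 4T1-CM. According to the methods the cells were rested, pre-treated with the compound and then cultured with it, and how long these libraries were cultured is not given in the sources used here. Since every condition has 1 library, the spread between cultures is unknown, no difference was tested, and no p-value is given. Of the 54532 genes of the table, 13339 had at least 10 reads in either library with 4T1-CM and are described here, and 11718 of them are protein-coding. The remaining 41193 had fewer, and 34093 of those had 0 reads in both libraries.

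AHR is a transcription factor that waits in the cytoplasm with the chaperone HSP90 and the co-chaperone p23 until a small molecule such as a tryptophan metabolite or a dioxin binds it. It then enters the nucleus, pairs with ARNT and binds a short element with the core GCGTG, which induces Cyp1a1, Cyp1b1, Nqo1, Tiparp and its own repressor Ahrr. In macrophages AHR is known to modulate interferon and inflammatory genes and tryptophan catabolism. CH223191 occupies the receptor and keeps such ligands from activating it.

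The libraries held 17557127 reads with DMSO and 16388246 with CH223191 in 4T1-CM, and 15535405 and 16129075 in normal medium. A level is given in CPM, the reads of a gene per 1000000 reads of the library after TMM scaling, and the limit that a count of 0 allows, 3 reads, was 0.171 CPM with DMSO and 0.185 CPM with CH223191 in 4T1-CM. A difference is given as the log2 ratio of CH223191 over DMSO with its 95% interval, the exact Clopper-Pearson interval of how a gene's reads split between both libraries. The interval covers counting error only and compares these libraries, not the conditions. A gene was called when it differed at least 1.5-fold with an interval that left out 0. The wider rule of at least 2-fold has no such requirement.

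Macrophage markers had the highest summed level of the cell type lists, 49115.2 CPM with DMSO and 52024.5 CPM with CH223191. Genes listed for other cell types had reads as well. All 14 macrophage markers were present, and none was called. Their log2 ratios lay between -0.23 for Adgre1, which encodes F4/80, and 0.31 for Mertk, a receptor for apoptotic cells. Adgre1 had 17920 reads with DMSO and 14168 with CH223191, Csf1r had 18166 and 16341, and Lyz2 had 576935 and 577870. The T cell genes Cd3d, Cd3e, Cd3g and Trac had 0 reads in all 4 libraries, as had the neutrophil genes Ly6g, S100a9 and Retnlg. Other genes of the neutrophil list had reads, and the list summed to 242 CPM with DMSO and 181 CPM with CH223191. Its 3 kept genes were Mmp8, called lower at -1.39, S100a8 at -0.33 and Csf3r at 0.32. Of the 12 genes of the epithelial and 4T1 tumour cell list, only Cdh1 was kept, with 16 and 20 reads, and the list summed to 18 reads with DMSO and 26 with CH223191. Fibroblast genes were present at a low level and summed to 158 CPM with DMSO and 136 CPM with CH223191, and the 10 B cell genes to 8.34 and 5.91 CPM, of which Ighm, with 128 and 67 reads, was called lower. The T cell and NK cell list summed to 48 and 31 reads, with Cd2 called lower at 14 and 3, and the eosinophil and mast cell list to 108 and 100, of which Siglecf held 105 and 88. The dendritic cell list summed to 808 and 796 CPM, nearly all of it Itgax with 14031 and 12849 reads, and Flt3 had 0 and 2. Its 5 kept genes had a median of -0.69, and Batf3 was called lower with 50 and 24 reads. Of the 12 genes of the large peritoneal macrophage list, Timd4 and Alox15 had at most 1 read in 4T1-CM and Gata6 had 26 and 24 reads, and of the 10 kept, F5 was called higher with 53 and 78 and Tgfb2 lower with 105 and 64. Of the 8 mesothelial genes only Gpm6a was kept, with 13 and 0 reads. In a bulk sample, fewer cells of a type and less RNA per cell cannot be told apart.

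The regulatory sequences of a few genes are shown first, as background. These are an AHR target and interferon-induced genes that were lower with CH223191, and the AHR repressor gene Ahrr. Ahrr was not called, and its window holds the core 3 times. The read counts do not test these sequences. Each is the stretch around the matches within 250 bases before the transcription start, from RefSeq (GRCm38.p6), written 5′ to 3′ on the strand of the gene. Capitals mark the AHR core GCGTG on either strand (CACGC when read on the opposite strand). Cyp1b1 at chr17:79715113-79715157 on the minus strand and Ahrr at chr13:74292334-74292458 on the minus strand read as follows.
Cyp1b1: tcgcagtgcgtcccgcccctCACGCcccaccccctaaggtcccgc
Ahrr: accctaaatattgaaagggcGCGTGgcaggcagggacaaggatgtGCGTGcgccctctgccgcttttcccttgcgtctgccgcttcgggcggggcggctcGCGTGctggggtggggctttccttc
This core is short and common. It was found in the window of 30.9% of the 27025 genes with a window, of 50.1% of the 9668 kept genes with one, and of 7 of the 12 kept AHR battery genes with one (58.3%), near the share of kept genes. Among these battery genes it was found in 1 of the 2 called lower and in 6 of the 10 others.

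The interferon-stimulated response element (ISRE) is the site of the factor ISGF3. It was searched on both strands as GAAA, any 2 bases, GAAA. The windows of 4 genes called lower with CH223191 are shown, with the matches in capitals, and matches may overlap. They are Ifit1 at chr19:34640765-34640833 (plus strand), Ifit3 at chr19:34583353-34583436 (plus strand), Oas3 at chr5:120777705-120777754 (minus strand) and Gbp3 at chr3:142559979-142560034 (plus strand).
Ifit1: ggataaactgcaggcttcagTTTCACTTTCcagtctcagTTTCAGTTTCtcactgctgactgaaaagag
Ifit3: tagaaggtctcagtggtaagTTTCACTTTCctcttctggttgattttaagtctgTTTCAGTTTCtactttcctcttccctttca
Oas3: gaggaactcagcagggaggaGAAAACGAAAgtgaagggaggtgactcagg
Gbp3: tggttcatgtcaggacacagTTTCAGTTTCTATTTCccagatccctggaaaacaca
Ifit1, Ifit3 and Gbp3 hold 2 matches each and Oas3 holds 1. The element was found in the window of 3.46% of the 27025 genes, of 3.31% of the 9668 kept genes with a window, of 13 of the 34 kept antiviral effectors with a window and of 9 of the 10 kept interferon-induced GTPases with one. Among the antiviral effectors it was found in 4 of the 7 called lower and in 9 of the 27 others. Among the GTPases it was found in 2 of the 2 called lower and in 7 of the 8 others. A match is a description of these letters and not of binding.

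Across all genes the libraries were alike. The median log2 ratio was 0.00, the middle 50% of genes lay between -0.14 and 0.15, and the middle 90% between -0.63 and 0.64. At least 2-fold higher with CH223191 were 324 genes (2.43% of those kept), and 307 were at least 2-fold lower (2.3%). By the rule of 1.5-fold with an interval, 380 genes were higher (2.85%) and 380 lower (2.85%). Most 2-fold differences came from few reads: 568 of the 631 genes had a mean of under 50 reads, 16 had 0 reads in a library and 118 had 1 to 3. The share at least 2-fold different was 30.4% among the 1539 genes with a mean under 20 reads and 0.16% among the 3131 genes with 1000 or more. In the plot of log2 ratio against level this appears as a funnel that narrows to the right.

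**Figure D1:**
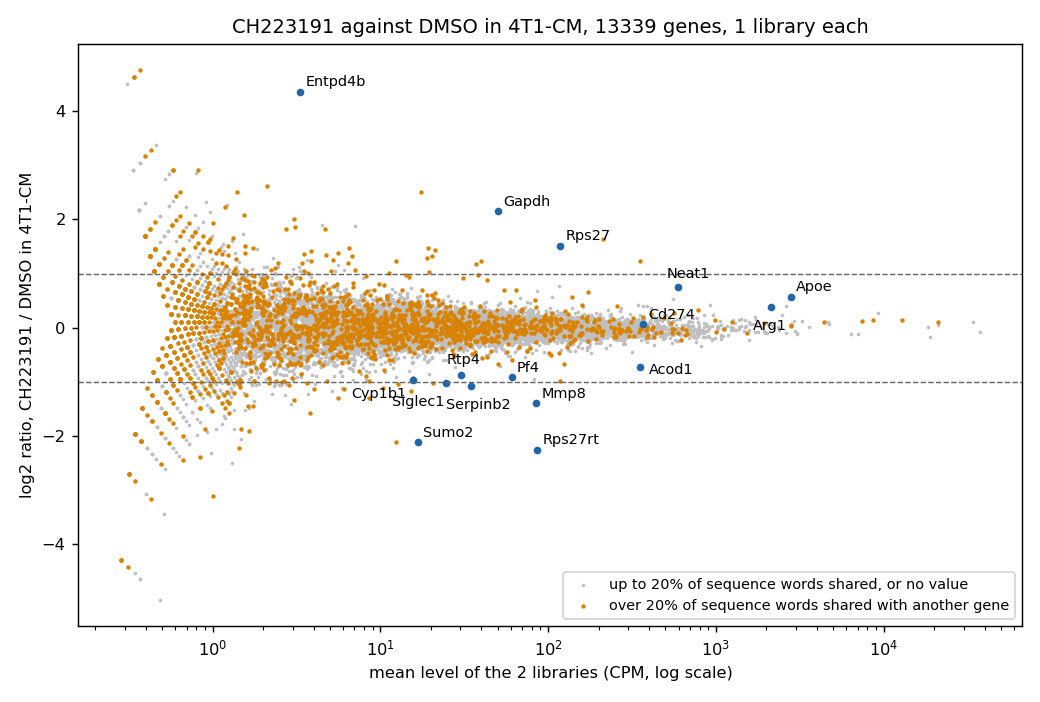
Log2 ratio of CH223191 over DMSO in 4T1-CM (vertical) against the mean level of both libraries in CPM (horizontal, log scale) for 13339 genes, each a point, with dashed lines at 2-fold. Orange points share over 20% of their 50-base words with another gene and are frequent among the differences far from 0 at high level, such as Gapdh at 2.15 and Rps27rt at -2.25, while Mmp8 at -1.39 shares none.

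Among the 7872 genes with a mean of at least 200 reads, 37 were called higher with CH223191 (0.47%) and 33 lower (0.419%). Many of these share sequence with another gene, so that reads could be counted on either. Sharing was measured by cutting each gene's transcripts into words of 50 bases and taking the percentage of them found in any other gene. Of the 37 higher genes, 26 shared over 20% of their words, and of the 33 lower genes, 10 did. This left 11 genes called higher and 23 called lower, of which 16 of the 23 and 0 of the 11 belong to the gene lists used below. The lists were written with earlier results of these data known, so this count is a description.

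**Figure D2:**
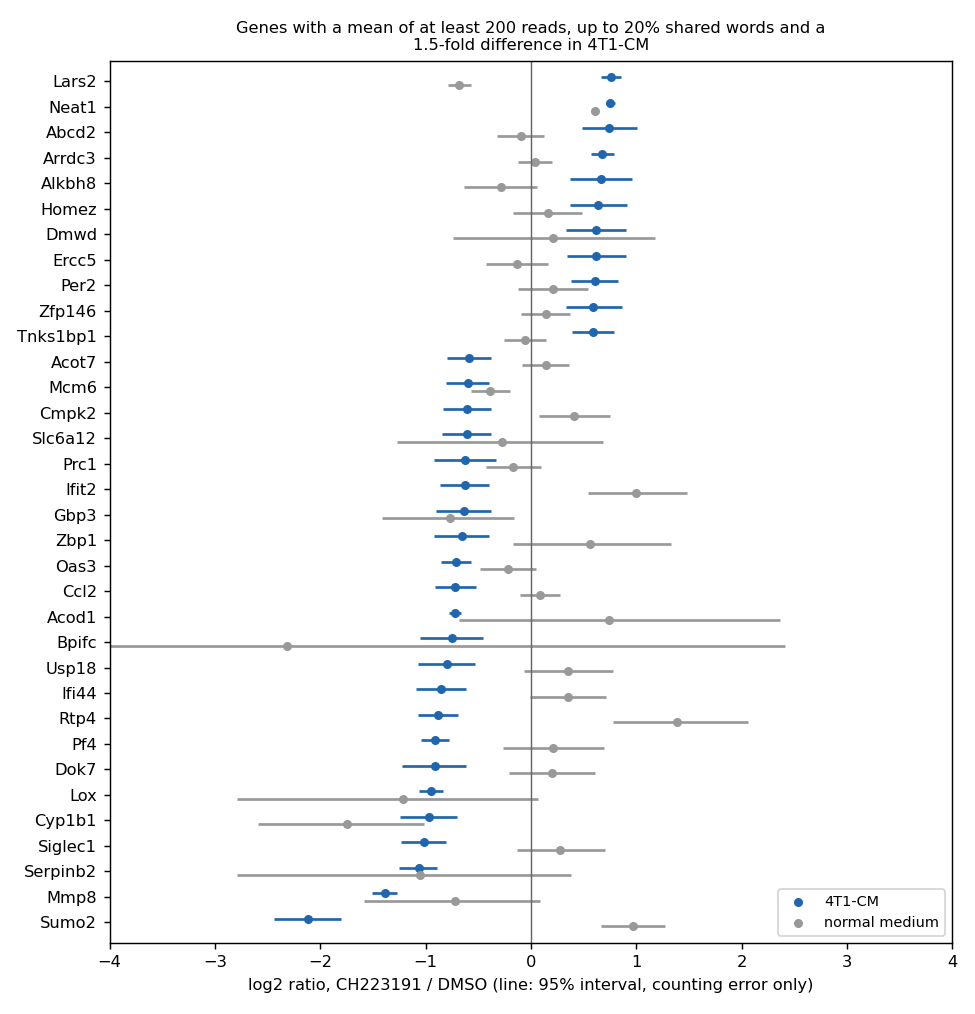
Log2 ratio of CH223191 over DMSO (horizontal) with its 95% counting interval (line) in 4T1-CM (blue) and normal medium (grey) for the 34 genes called in 4T1-CM that have a mean of at least 200 reads and at most 20% shared words. In 4T1-CM the 23 lower genes lie between -2.11 (Sumo2) and -0.59, and the 11 higher genes between 0.59 and 0.76 (Lars2).

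The AHR targets with reads came first. Cyp1b1, a cytochrome P450 that is a classical AHR target (chr17:79706953-79715041, GRCm38), had 361 reads with DMSO and 171 with CH223191 in 4T1-CM, and 65 and 19 in normal medium. Its level was 20.6 CPM with DMSO and 10.5 CPM with CH223191, a log2 ratio of -0.97 (95% interval -1.24 to -0.70). In normal medium its log2 ratio was -1.74. Cyp1b1 was thus lower with CH223191 in both media, by more than counting error.

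Nqo1, a quinone reductase induced by both AHR and NRF2, had 70 reads with DMSO and 33 with CH223191 in 4T1-CM and 28 and 18 in normal medium. Its log2 ratio in 4T1-CM was -0.97 (-1.62 to -0.36). Cyp1b1 and Nqo1 were the 2 called genes of the 16 kept members of the AHR battery. Both were lower (12.5%, where 2.85% of all genes were called lower). The receptor itself differed little: Ahr had 150 and 167 reads in 4T1-CM, a log2 ratio of 0.26 (-0.06 to 0.59), beside 30 and 21 in normal medium. Its partner Arnt had 960 and 1068 reads, a log2 ratio of 0.26 (0.13 to 0.39).

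The other AHR targets gave no call. Tiparp, an ADP-ribosyltransferase that feeds back on AHR, had 1529 and 1332 reads, a log2 ratio of -0.09 (-0.20 to 0.02). Ahrr, the AHR repressor, had 25 and 23 reads. Cyp1a1, Cyp1a2 and Aldh3a1 had 0 reads in all 4 libraries and were not detectable at this depth. Of the chaperones, Hsp90aa1 was at -0.16, Hsp90ab1 at -0.07 and Ptges3 (p23) at -0.28. The median of the 16 genes was -0.14, with 12 below 0, beside a median of 0.00 over all genes. The interval lay wholly below 0 for 8 and wholly above for 1, where 27.5% of all genes left out 0 in either direction. In normal medium the median of the list was -0.29, with 3 genes above 0.

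Tryptophan and kynurenine enzymes, which make AHR ligands, had few reads. Ido1 had 1 read with DMSO and 2 with CH223191, and Ido2 had 3 and 2. Kynu, which cleaves kynurenine, had 13 reads and 1 read, a log2 ratio of -3.06 with an interval of -9.00 to -0.86. Kyat3, a kynurenine aminotransferase, was called higher, with 27 and 51 reads and a log2 ratio of 1.01 (0.33 to 1.76). The amino acid transporters Slc7a8, with 3572 and 3261 reads, and Slc3a2, with 5463 and 5049, had log2 ratios of -0.02 and -0.01. The 8 kept genes had a median of -0.12.

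Interferon-induced antiviral genes had the lowest median of the 25 lists, -0.34 over 45 kept genes, of which 38 were below 0. With CH223191, 12 were called lower (26.7% of the list, where 2.85% of all genes were) and 0 were called higher. These genes are induced by type I interferon and restrict viruses at steps such as translation, RNA degradation and assembly. The intervals lay wholly below 0 for 27 of the 45 and wholly above 0 for 3, Slfn5, Ifitm2 and Apobec3. Over all kept genes the interval left out 0, in either direction, for 27.5%.

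The IFIT genes encode proteins that bind foreign RNA. Ifit1 (chr19:34640871-34650009) had 206 reads with DMSO and 109 with CH223191 in 4T1-CM, and 9 and 42 in normal medium. Its log2 ratio in 4T1-CM was -0.81 (-1.16 to -0.47). Ifit2 had 405 and 243 reads in 4T1-CM and 59 and 118 in normal medium, with a log2 ratio in 4T1-CM of -0.63 (-0.86 to -0.40). Ifit3 had 136 and 81 reads in 4T1-CM and 18 and 37 in normal medium, a log2 ratio in 4T1-CM of -0.64 (-1.05 to -0.23), and shares 51.2% of its words with another gene. The 3 genes were lower with CH223191 in 4T1-CM and higher with it in normal medium.

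Rtp4, a receptor chaperone and regulator of interferon signalling, had 690 reads with DMSO and 348 with CH223191 in 4T1-CM and 30 and 79 in normal medium, a log2 ratio in 4T1-CM of -0.88 (-1.07 to -0.69). Ifi44 had 440 and 226 reads and -0.85 (-1.09 to -0.62). Usp18, the protease that removes ISG15 and dampens the interferon receptor, had 331 and 176 reads and -0.80 (-1.08 to -0.54).

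Oas3, which makes the oligoadenylate that activates RNase L, had 1122 and 637 reads and a log2 ratio of -0.71 (-0.85 to -0.57). Zbp1, a sensor of Z-form nucleic acid, had 330 and 194 reads and -0.66 (-0.92 to -0.40). Cmpk2 had 410 and 250 reads and -0.60 (-0.84 to -0.38). Its neighbour Rsad2, which encodes viperin, had 754 and 497 reads and -0.49 (-0.66 to -0.33), short of 1.5-fold. The dynamin-like GTPases Mx1 and Mx2 were called with fewer reads, 88 and 51 for Mx1 and 56 and 22 for Mx2. The last of the 12, Ifi205, had 13 and 3 reads.

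The differences were not shared by every antiviral gene. Bst2, which tethers budding virions, had 2715 and 1861 reads and -0.44 (-0.52 to -0.35), and Isg15 had 171 and 136 reads and -0.22 (-0.56 to 0.11). The RNA sensors Ddx58 (RIG-I) and Ifih1 (MDA5) were at -0.32 and -0.15. Eif2ak2 (PKR), Adar and Samhd1 lay between -0.03 and 0.01, with intervals that held 0.

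Interferon-induced GTPases attack the vacuoles of intracellular microbes. Of the 15 kept, 14 were below 0 and 4 were called lower (26.7%, where 2.85% of all genes were), with a median of -0.25. Gbp3 had 334 and 199 reads, a log2 ratio of -0.64 (-0.90 to -0.38). Gbp5, which promotes inflammasome assembly, had 65 and 29 reads and -1.04 (-1.74 to -0.40). Gbp10 had 39 and 15 reads, and Iigp1 had 15 and 2, with an interval of -5.97 to -0.69. The better counted Irgm1 (830 and 661 reads) and Gbp2 (626 and 499) were both at -0.22.

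**Figure D3:**
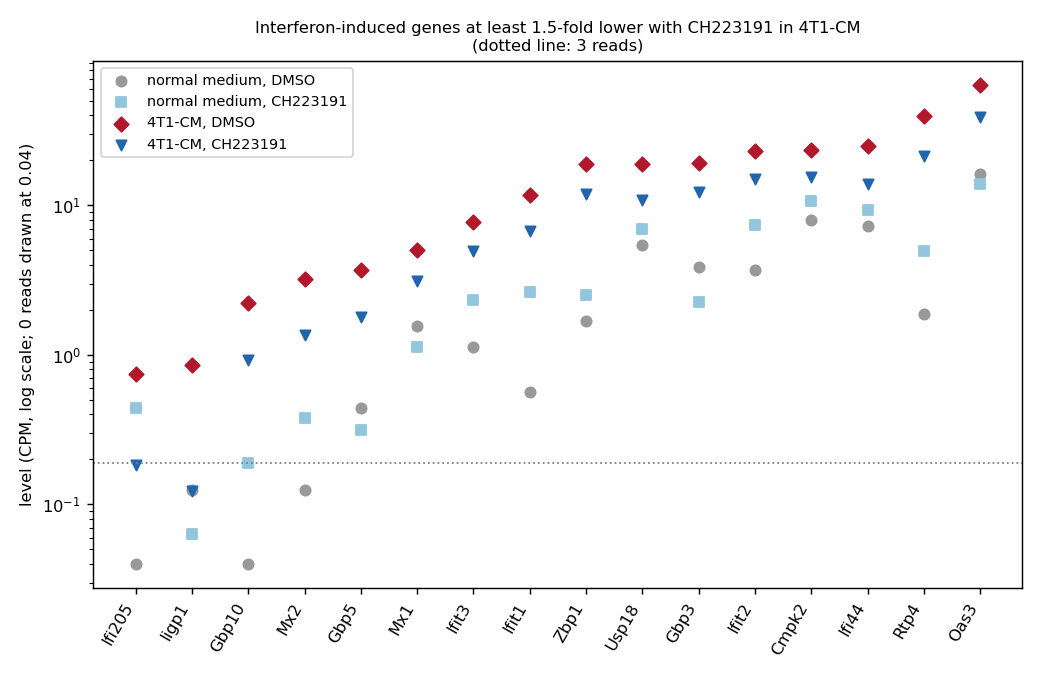
Level in CPM (vertical, log scale) of the 12 antiviral effectors and 4 interferon-induced GTPases called lower with CH223191 in 4T1-CM, with a marker for each of the 4 libraries and genes ordered by their level in 4T1-CM with DMSO. Because of this choice the 4T1-CM library with CH223191 lies below the 4T1-CM library with DMSO for each of the 16 genes. Rtp4 reads 39.4 CPM with DMSO and 21.4 CPM with CH223191 there.

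The signalling genes upstream of these effectors were not called. Of the 22 kept ligands, receptors and signalling genes, 0 met the 1.5-fold rule, and the median was 0.04. Irf7, the interferon-induced amplifier of type I interferon, had 2954 reads with DMSO and 2132 with CH223191, a log2 ratio of -0.36 (-0.44 to -0.28), beside 225 and 330 in normal medium. Stat2 was at -0.22, and Irf9 at -0.07. The receptor chains Ifnar1 and Ifnar2 were at 0.05 and 0.13. Ifnb1 and Ifng, which encode interferon beta and gamma, had 0 reads in all 4 libraries.

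MHC class I and immunoproteasome genes gave 0 calls of 17, with a median of 0.00. B2m, the light chain of MHC class I, had 29948 and 23629 reads and a log2 ratio of -0.23 (-0.26 to -0.21). H2-K1 was at 0.04. MHC class II genes were at a low level and gave 0 calls of 7, with H2-Aa at -0.50, H2-Ab1 at -0.41 and Cd74 at -0.30.

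Chemokines differed gene by gene. Of the 16 kept, 6 were called lower (37.5%, where 2.85% of all genes were) and 0 higher, with a median of -0.28. Pf4, a platelet and macrophage chemokine, had 1386 reads with DMSO and 685 with CH223191, a log2 ratio of -0.91 (-1.04 to -0.78), and 71 and 82 in normal medium. Ccl2, the main attractant of monocytes, had 607 and 342 reads and -0.72 (-0.92 to -0.53), and 440 and 467 in normal medium. The neutrophil attractant Cxcl3 had 130 and 69 reads and -0.80 (-1.25 to -0.37).

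The other called chemokines had fewer reads. Ccl22 had 64 and 34, Ccl7 had 97 and 58, and Ppbp had 11 and 2. Chemokines with many reads lay on both sides of 0. Ccl6 had 7972 and 10690 reads and was higher, at 0.53 (0.49 to 0.57), in normal medium too, at 0.70. Ccl9 had 7167 and 6146 reads and was at -0.11, and Cxcl16 had 7287 and 7346 reads and was at 0.12.

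Of 18 inflammatory cytokines and enzymes, 2 were called lower (11.1%, where 2.85% of all genes were). Acod1 makes itaconate, a metabolite of activated macrophages (chr14:103046977-103056573). It had 7661 reads with DMSO and 4309 with CH223191 in 4T1-CM and 7 and 12 in normal medium, with a log2 ratio in 4T1-CM of -0.72 (-0.78 to -0.67). Ptgs2, the inducible cyclooxygenase, had 172 and 88 reads and -0.86 (-1.25 to -0.48). Both genes thus had few reads in normal medium (11 and 12 for Ptgs2) and were lower with CH223191 where 4T1-CM was present.

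Il1b and Tnf did not reach 1.5-fold. Il1b had 3162 and 2252 reads, a log2 ratio of -0.38 (-0.46 to -0.30), and Tnf had 507 and 373 and -0.33 (-0.53 to -0.14). Inhba, which encodes a subunit of activin, had 14254 and 11616 reads and -0.19. Arg1, the arginase of alternatively activated macrophages, differed the other way, with 32359 and 39348 reads and 0.39 (0.37 to 0.41). Il6 had 10 reads in each library, and Nos2 had 45 and 44.

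Among checkpoint and costimulatory ligands, Cd274, which encodes PD-L1, was nearly alike in 4T1-CM (chr19:29367455-29388095). It had 6284 reads with DMSO and 6091 with CH223191, 359 and 375 CPM, a log2 ratio of 0.06 (0.01 to 0.11), and 1247 and 1539 reads in normal medium. Pdcd1lg2, which encodes PD-L2, was the only called gene of the 15 kept, where 2.85% of all genes were called in each direction. It was higher, with 2 and 16 reads and a log2 ratio of 2.83 (1.02 to 6.27). Nt5e, the ectonucleotidase CD73, had 319 and 203 reads and -0.54 (-0.81 to -0.29). Vsir, which encodes the checkpoint VISTA, had 6593 and 7272 reads and 0.25 (0.20 to 0.30), and Cd86 was at -0.27 (-0.55 to 0.01).

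Of 32 proliferation genes, 5 were called lower (15.6%, where 2.85% of all genes were) and 0 higher. All 32 log2 ratios were below 0, with a median of -0.33 and a range of -0.90 to -0.07. The interval lay wholly below 0 for 20 and held 0 for 12, where 27.5% of all genes left out 0 in either direction. The called genes were Bub1b, a spindle checkpoint kinase, with 135 and 67 reads, the mitotic kinases Aurka, with 172 and 95, and Aurkb, with 150 and 86, the cyclin Ccna2, with 227 and 135, and the replication helicase subunit Mcm6, with 518 and 317. Top2a had 752 and 493 reads and a log2 ratio of -0.50 (-0.67 to -0.34). Mki67, which encodes the Ki-67 antigen, had 954 and 686 reads and -0.37 (-0.51 to -0.22). Pcna, with the most reads of the list, was at -0.13. In normal medium the median of the list was -0.08.

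Of the 23 lower genes with many reads and few shared words, only Sumo2, described below with its copies, was lower than Mmp8. Mmp8, neutrophil collagenase, which macrophages can also make (chr9:7558456-7568485), had 2142 reads with DMSO and 759 with CH223191 in 4T1-CM, and 35 and 21 in normal medium. This was 122 and 46.7 CPM, 2.62-fold lower, with a log2 ratio of -1.39 (-1.51 to -1.27). Mmp8 also stood in the neutrophil list of 12 genes, of which 3 were kept, and whose sum, Mmp8 included, was 242 CPM with DMSO and 181 CPM with CH223191. Other neutrophil genes differed in level: S100a8 had 560 and 412 reads and Csf3r had 1521 and 1759. Ly6g, S100a9 and Retnlg were at 0 in both libraries, and Elane had 3 and 0 reads. Which cells the Mmp8 reads came from was not tested.

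Serpinb2, the plasminogen activator inhibitor PAI-2, had 825 and 365 reads in 4T1-CM and 13 and 6 in normal medium, with a log2 ratio in 4T1-CM of -1.07 (-1.25 to -0.89). Timp3, an inhibitor of metalloproteinases, had 77 and 28 reads and -1.34 (-2.03 to -0.71). With Mmp8, these were the 3 called genes of 18 (16.7%, where 2.85% of all genes were called lower). The most abundant protease of the list, Mmp12, had 128174 and 110127 reads and -0.11, and Mmp9 had 7606 and 7463 and 0.08.

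Of 19 collagens and matrix genes, 3 were called lower (15.8%, where 2.85% of all genes were) and 0 higher. Lox, which cross-links collagen, had 1912 reads with DMSO and 921 with CH223191 in 4T1-CM and 17 and 7 in normal medium, a log2 ratio in 4T1-CM of -0.95 (-1.06 to -0.83). Tnc (tenascin C) had 61 and 27 reads, and Col6a2 had 31 and 12. The collagens that define fibroblasts moved less, with Col1a1 at 958 and 704 reads (-0.34) and Col1a2 at 1117 and 955 (-0.12). Beside these the 8 kept fibroblast markers had a median of -0.13, and their part in the matrix values was not tested. Fn1, fibronectin, which macrophages make, had 39547 and 48430 reads and was higher, at 0.40 (0.38 to 0.42).

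NRF2 targets, which detoxify and counter oxidation, gave 3 calls of 20, all lower (15%, where 2.85% of all genes were called lower). These were Mt2 with 41 and 10 reads, Nqo1 as above, and Me1 with 126 and 74. Hmox1, heme oxygenase, had 20252 and 19179 reads and a log2 ratio of 0.03, and Slc7a11, the cystine transporter, had 3853 and 3042 and -0.23 (-0.30 to -0.16). NRF2 itself, Nfe2l2, had 7152 and 5728 reads and -0.21 (-0.26 to -0.16).

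Cholesterol and fatty acid synthesis genes gave 0 calls. Of the 26 kept, 24 were below 0, with a median of -0.19. The interval lay wholly below 0 for 16 and wholly above for 1, where 27.5% of all genes left out 0 in either direction. Fasn, fatty acid synthase, had 3672 and 2459 reads and a log2 ratio of -0.47 (-0.55 to -0.40), and Cyp51 had 1904 and 1302 and -0.44 (-0.54 to -0.34). The lowest of the list, Fasn, thus stayed short of 1.5-fold.

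Genes of LXR, PPARG and lipid handling lay slightly higher, with a median of 0.07, and gave 0 calls. The interval lay wholly above 0 for 13 of 21, where 27.5% of all genes left out 0 in either direction. Apoe, the lipoprotein that carries cholesterol out of macrophages, had 39277 reads with DMSO and 54166 with CH223191, a log2 ratio of 0.57 (0.55 to 0.59), and 60230 and 87958 in normal medium. Pltp had 13776 and 17091 reads and 0.42 (0.39 to 0.45). Spp1, osteopontin, was at 0.27, Abca1 at 0.23 and Gpnmb at -0.17.

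Of 26 glycolysis genes and HIF-1 targets, 13 had intervals wholly above 0 and 4 wholly below, with a median of 0.05. Over all kept genes 27.5% of intervals left out 0, in either direction. Vegfa, a HIF-1 target, had 5165 and 6406 reads and was at 0.42 (0.37 to 0.47). Gapdh was the 1 called gene, where 2.85% of all genes were called in each direction, and its copies are described below.

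The remaining lists had 0 to 2 called genes each, beside 2.85% of all genes in each direction. In the complement list C5ar2, a receptor for C5a, was called higher with 3 and 23 reads, a log2 ratio of 2.86 (1.32 to 5.43), while Cfb, which shares 73.0% of its words with another gene, was called lower with 165 and 88. Tlr9 (32 and 15 reads) was the 1 called gene of 21 Toll-like and scavenger receptors, while Tlr2 had 4404 and 3150 reads and was at -0.38 and Clec4e, the receptor Mincle, had 6396 and 4354 and was at -0.45.

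In the TGF-beta and activin pathway Fst (59 and 34 reads), the activin inhibitor follistatin, and Tgfb2 (105 and 64) were called lower of 19 genes. Batf3 (50 and 24) was the 1 called of 19 immediate-early and AP-1 genes. The lists of NF-kB subunits and inhibitors, of the GM-CSF receptor and STAT5, of ATF4 and amino acid stress, and of ER chaperones gave 0 calls, with medians between -0.03 and 0.03.

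Over the 25 lists other than cell type markers, 473 different genes were kept, and 45 were called lower (9.51%) and 4 higher (0.846%). Over all kept genes 2.85% were called in each direction, and the lists were written with earlier results of these data known, so these shares are a description. The plot of gene lists shows every gene, and 9 of the 25 lists had 0 calls.

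**Figure D4:**
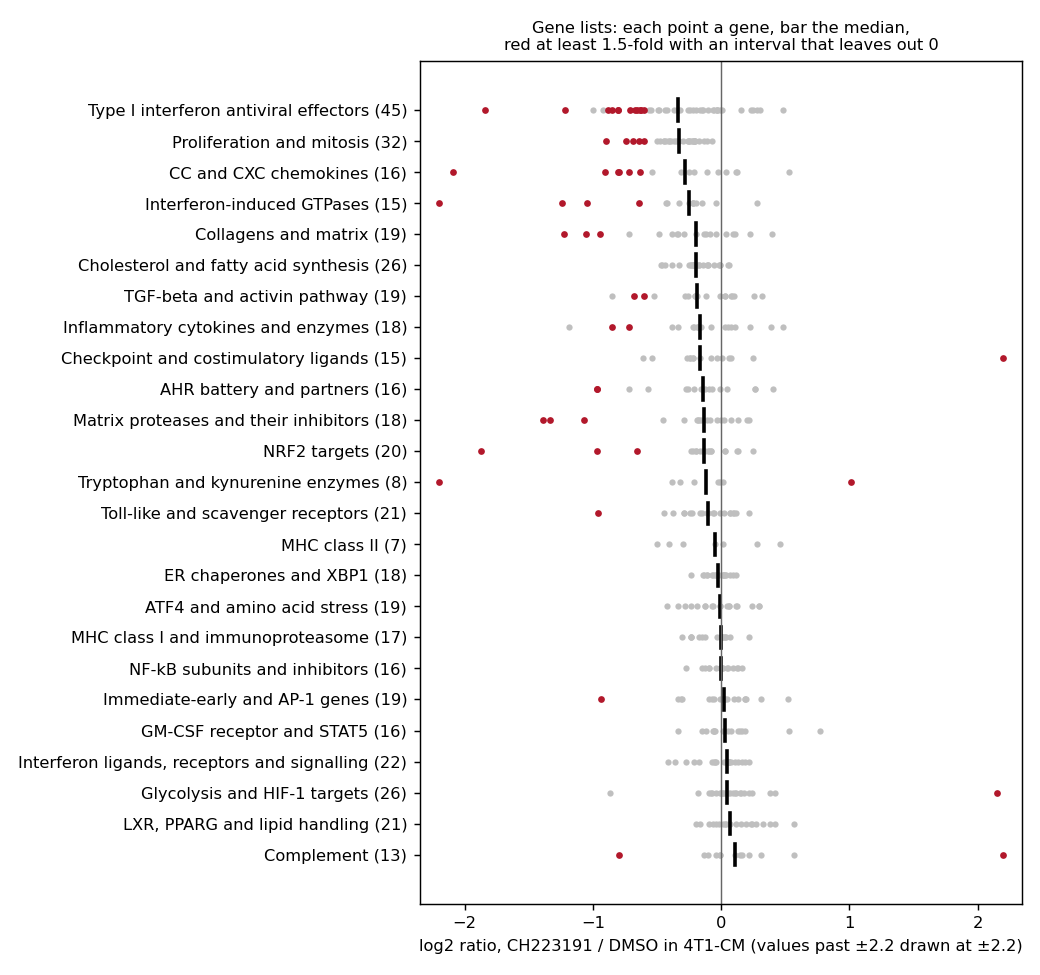
Log2 ratio of CH223191 over DMSO in 4T1-CM (horizontal) for the kept genes of 25 lists, with the number of genes in parentheses, each point a gene, red where called, and a bar at the median of the list. The lowest median is that of the antiviral effectors at -0.34 and the highest that of complement at 0.11.

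Beyond the lists, the 23 lower genes with at least 200 reads and few shared words included an interferon-induced gene and a mitotic gene. Siglec1, the sialic acid receptor CD169, is known as an interferon-induced gene of macrophages (chr2:131069220-131086765). It had 580 reads with DMSO and 266 with CH223191 in 4T1-CM and 90 and 109 in normal medium, with a log2 ratio in 4T1-CM of -1.02 (-1.23 to -0.81). Prc1, a protein of the mitotic spindle midzone, was at -0.62 (-0.92 to -0.33). Others outside the lists were Dok7 with 285 and 140 reads, Bpifc with 263 and 145, Slc6a12 with 408 and 248, and Acot7 with 500 and 308.

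The 11 higher genes belonged to none of the lists. Neat1, the long noncoding RNA that builds paraspeckles (chr19:5824708-5845478), had 7743 reads with DMSO and 12102 with CH223191, a log2 ratio of 0.75 (0.71 to 0.79), and 10741 and 16294 in normal medium, where it was at 0.60. Arrdc3, an arrestin-like regulator, had 1163 and 1724 reads and 0.68 (0.57 to 0.78). Per2, a clock gene, had 280 and 395 reads and 0.60 (0.38 to 0.83). Abcd2, a peroxisomal fatty acid transporter, had 199 and 309, and the DNA repair nuclease Ercc5 had 182 and 259. The others were Lars2, Alkbh8, Homez, Dmwd, Zfp146 and Tnks1bp1. Lars2, the mitochondrial leucyl-tRNA synthetase, had 1500 and 2362 reads in 4T1-CM and 1847 and 1150 in normal medium. It was thus higher with CH223191 in 4T1-CM and lower with it in normal medium, as was the ribosomal RNA gene CT010467.1, described below.

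The protein-coding genes with the highest lower bound of the interval were mostly members of families or copies. They were Entpd4b, Gapdh, Snrpg, Rps27, Cd300ld5, C5ar2, mt-Co3, Xlr4c, Ceacam2, mt-Co2, Pdcd1lg2 and Rbms3. Of these, C5ar2, Pdcd1lg2 and Rbms3 (5 and 25 reads) shared less than 5% of their words. Summing a gene with the genes that hold at least 10% of its words took away most of the difference in many of the others. Rps27, a ribosomal protein gene, had 1072 reads with DMSO and 2838 with CH223191, a log2 ratio of 1.51 (1.41 to 1.62), while its copy Rps27rt on chromosome 9 had 2491 and 485 and -2.25 (-2.40 to -2.11). Together with a minor copy they had 3563 and 3325 reads, a log2 ratio of 0.01 (-0.06 to 0.08).

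The same held for other pairs. Snrpg, a subunit of the spliceosome, had 53 and 181 reads, and with its copy Gm8186 it had 265 and 261. Cd300ld5 had 7 and 39 reads, and with its family 232 and 197. Gapdh had 322 and 1331 reads, a log2 ratio of 2.15, and with the 31 genes that share its words 13019 and 16259, a log2 ratio of 0.43 (0.40 to 0.46). Gm13394, a Gapdh copy, held most of these, with 12212 and 14141 reads. Entpd4b, which shares all its words with other genes that had 0 reads, had 5 reads with DMSO and 104 with CH223191 in 4T1-CM. It had 8 and 6 in normal medium, and its sum equalled its own reads.

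Among the genes lowest by the upper bound were Rps27rt, Sumo2, Gm4353 and Mmp8, which had at least 8 reads in both libraries, and Trpc4, an ion channel, with 39 and 6 reads. Sumo2, a ubiquitin-like modifier, had 477 and 102 reads, a log2 ratio of -2.11, and with its copies 610 and 396, a log2 ratio of -0.51 (-0.70 to -0.33). Gm4353 had 42 and 8 reads, and with Nup35 180 and 156. The remaining 7 had 0 or 1 read with CH223191. Camk2b had 17 reads with DMSO and 0 with CH223191, at least 5.26-fold lower when 0 is set to 3 reads, and Gpm6a and Mfap2 had 13 and 0, at least 4.02-fold lower. Tmem130 (12 and 0), Adrb1 (11 and 0), 4930524J08Rik (10 and 0) and Atp1b1 (17 and 1) completed the list. Atp1b1 shares 15.8% of its words with Nme7, and together they had 238 and 207 reads, a log2 ratio of -0.09. Gpm6a is also a mesothelial marker, and of the other 7 mesothelial markers Upk3b, Lrrn4, Upk1b, Muc16 and Krt19 had 0 reads in both libraries, Wt1 had 4 and 9, and Msln had 0 and 1.

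Outside protein-coding genes, Gm10076, Gm44126 and E430024P14Rik had the highest lower bounds, and Gm9824, Rpl31-ps13 and Gm14822 the lowest upper bounds. Gm10076 had 91 and 483 reads and shares 69.9% of its words. Its source gene Rpl41 had 8354 and 6186, and the sum was at -0.23. Gm9824 had 354 and 76 reads, and with Pebp1 and another copy the sum was at 0.16. E430024P14Rik had 0 and 12 reads. It is annotated antisense to Tagap, which had 98 and 115, and without knowledge of the strand used in counting their reads cannot be told apart.

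In all, 36 called genes had a mean of at least 200 reads and over 20% shared words. Their median size of log2 ratio was 0.998 as listed and 0.41 after summing, and 22 of the 36 sums were under 1.5-fold. The other 14 stayed past it. These included mt-Co2, with 418 and 907 reads and a summed log2 ratio of 1.19 (1.07 to 1.32), and mt-Co3, with 199 and 503 and 1.38 (1.21 to 1.55). Both are encoded by the mitochondrial genome and have nuclear copies. The mitochondrial gene with the most reads, mt-Co1, had 144620 and 148502 reads and a log2 ratio of 0.15, and mt-Nd1, which shares none of its words, was at 0.01. All mitochondrial genes together took 1.76% of the reads with DMSO and 1.79% with CH223191. The ribosomal RNA gene CT010467.1 had 3686 and 8055 reads, and Gm23935 had 1802 and 5222. How reads that fit several genes were counted is not given in the sources used here.

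**Figure D5:**
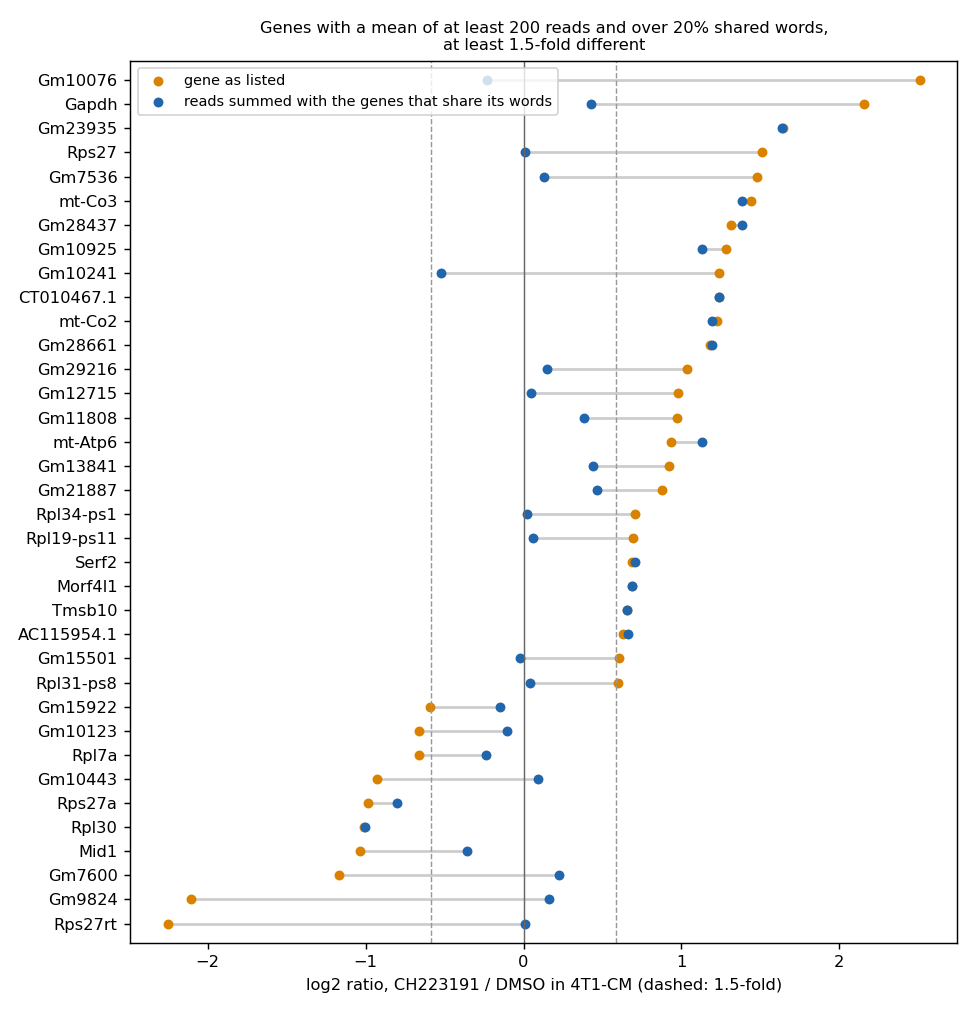
Log2 ratio of CH223191 over DMSO in 4T1-CM (horizontal) for the 36 called genes with a mean of at least 200 reads and over 20% shared words, as listed (orange) and after summing reads over the genes that share their words (blue), with dashed lines at 1.5-fold. Sums lie within the dashed lines for 22 of the 36 genes, for example Rps27 and Rps27rt at 0.01.

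The most abundant genes differed little. The 10 with the most reads were Fth1, Lyz2, Ctsl, Psap, Gpnmb, Ctsb, Ctsd, Spp1, mt-Co1 and Ftl1, which encode ferritin chains, lysozyme, lysosomal enzymes, osteopontin and a mitochondrial oxidase subunit. Their log2 ratios lay between -0.17 for Gpnmb and 0.27 for Spp1. Fth1 had 671597 and 590562 reads, a log2 ratio of -0.08.

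The response to CH223191 in normal medium, which shares no library with that in 4T1-CM, gave other values for the interferon genes. The 45 antiviral effectors had a median log2 ratio of -0.34 in 4T1-CM and 0.34 in normal medium, and the interval in 4T1-CM lay wholly below that in normal medium for 24 of them and wholly above for 0, where over all kept genes these shares were 10.8% below and 10.6% above. Other lists had such genes as often: the interval lay wholly below for 14 of 26 cholesterol and fatty acid synthesis genes, 13 of 21 genes of LXR, PPARG and lipid handling and 9 of 14 macrophage markers. The 15 GTPases had -0.25 and 0.07, with 1 such gene. The 16 chemokines had -0.28 and 0.30, with 6 below and 0 above. For Cyp1b1 both values were negative, -0.97 and -1.74, and the 16 AHR battery genes had medians of -0.14 and -0.29. The 19 collagens and matrix genes had medians of -0.20 and -0.51, and the 8 kept fibroblast markers had -0.13 and -0.85. In normal medium the fibroblast list summed to 68.5 CPM with DMSO and 33.5 CPM with CH223191. The part of fibroblasts in the matrix values was not tested in either medium. These intervals hold counting error only, and the difference between the media was not tested.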

How the data were processed

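Counts were used as the authors deposited them: whole-number reads per gene, not normalized, in 1 table for the 4 libraries. Per the submitters' processing notes, HISAT2 2.0.5 and DESeq2 were used; the counter for these libraries, its treatment of strand and the genome build are not given in the sources used here, and 0 columns of counts went unmatched. The table's gene starts and ends equalled those of GENCODE M21 (GRCm38) for 53585 of 54495 shared genes. Columns named RPMI were taken as the samples labelled 0% 4T1 and those named TCM as 30% 4T1. Where entries shared a symbol, the one with most reads carried it and the others their identifier.

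Genes with at least 10 reads in either library with 4T1-CM were kept. Libraries were scaled by TMM (edgeR 4.0.16, R 4.3.3; factors 0.986 to 1.03) over all 4 libraries, a prior count of 0.5 was added, and log2 ratios were taken. Clopper-Pearson intervals (95%) were computed with scipy 1.17.1, and reads of PCR copies are not independent molecules. Words of 50 bases were compared between GENCODE M21 transcripts, and 13325 of the 13339 genes had a value. RefSeq windows matched 9668 of the 13339 by symbol, and a gene with several windows counted as holding a motif if any did. The intervals and calls were tested on simulated counts with counting error only, which hold no variation between cultures and no reads shared between genes.

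Named were the 12 protein-coding genes with the highest lower bound and the 12 with the lowest upper bound, 3 of other biotypes each way, the 10 with the most reads and the genes of 35 lists. Genes with at least 200 reads that were called were named in addition, after their values were seen. The comparison and the lists were chosen with earlier results of these data known. Alternatives were scaling by DESeq2 1.42.0 size factors or totals, other filters, a larger prior count (5), only protein-coding genes and only genes with few shared words. An effect of CH223191 and ordinary variation between cultures cannot be told apart with 1 library each. Some genes of the lists are not reported here.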

Additional observations from a re-analysis of the deposited data

Results flagged for a closer look

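The antiviral effectors were set apart because their median log2 ratio with CH223191 was below 0 in 4T1-CM and above 0 in normal medium, and the median of the gene-wise difference, 4T1-CM minus normal medium, was -0.68, with 37 of 45 genes below 0, where the median over all kept genes was -0.0047 and 50.5% were below 0. With DMSO their summed level was 2346 CPM in 4T1-CM and 1213 CPM in normal medium. The chemokines were set apart for the same reason, with a median difference of -0.80 and 15 of 16 genes below 0. These lists had the lowest median differences of the 25 lists other than cell type markers. Medians with these signs were not particular to them. The inflammatory cytokines and enzymes had -0.17 in 4T1-CM and 0.20 in normal medium, with a median difference of -0.46. The interferon-induced GTPases had -0.25 and 0.07, with a median difference of -0.42, and further lists had the same signs. For every list each medium has 1 library per treatment, and the difference was not tested.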

How the results depend on the processing

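No paired analysis was possible because each condition has 1 library. The filter on low counts moved the 2-fold counts most, since it changes which genes are tested. At least 2-fold higher and lower were 2583 and 2688 genes with no filter, 105 and 85 with at least 10 reads in both libraries, 48 and 33 with at least 50 reads in either, 173 and 136 with a prior count of 5, and 132 and 181 among protein-coding genes alone. Without genes with over 20% shared words, 191 were at least 2-fold higher. By the 1.5-fold rule, 179 were higher and 179 lower with at least 50 reads in either library, 197 were higher among protein-coding genes alone, where 269 were lower, and 223 were higher without genes with over 20% shared words, where 267 were lower. The median of the neutrophil markers was -0.0728 with no filter. The other scalings changed no count by over 1.5 times. The counts of lower antiviral effectors (11 to 12), chemokines (5 to 7) and proliferation genes (5) kept within 1.5 times in every alternative.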
